A study of Mus musculus with 15 samples.

Results

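The homeostatic genes of microglia were followed through the hippocampus of aged mice. These genes mark the resting state of the cells and were 10 of the 55401 genes counted, taken by symbol: Csf1r, Cx3cr1, P2ry12, P2ry13, Gpr34, Siglech, Selplg, Tmem119, Olfml3 and Irf8. Bulk RNA was sequenced from the hippocampus of 15 female mice aged 18 to 20 months. Tg2576 mice (genotype Tg2576 +/+) are an amyloid model in which the prion promoter drives a transgene for human APP of the Swedish mutant form, and WT mice (genotype Tg2576 -/-) were their negative littermates. All mice were dosed daily into the stomach for 5 weeks, either with DHA (docosahexaenoic acid) at 450 mg/kg in sesame oil or with the vehicle, sesame oil. Of the WT mice 4 received vehicle and 4 received DHA, and of the Tg2576 mice 4 received vehicle and 3 received DHA. Levels are given as CPM, the counts scaled to a common library size, with library sizes adjusted by the TMM method. A gene was called in a comparison when its unadjusted p was under 0.01 in edgeR, whose quasi-likelihood model (F tests, two-sided) covered all 19536 genes that passed a low-count filter. Adjusted p-values are Benjamini-Hochberg values over those genes. All 10 genes passed that filter.

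Microglia are the resident macrophages of the brain. In undisturbed tissue they survive on signals through the receptor Csf1r, read neuronal fractalkine through Cx3cr1 and sense nucleotides through P2Y receptors, and the transcription factors PU.1 (Spi1) and Irf8 maintain their identity. Around amyloid plaques microglia are known to switch on genes such as Trem2 and Cst7 and to lower several of the homeostatic genes. In bulk tissue, fewer cells of a type and less RNA per cell cannot be told apart.

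The genes lie on 7 chromosomes (GRCm38, file coordinates). P2ry12 (chr3:59216272-59262871) and P2ry13 (chr3:59207892-59210882) were neighbours 5.4 kb apart, both on the minus strand within Med12l. Tmem119 (chr5:113793729-113800516) and Selplg (chr5:113818536-113832644) lay 18 kb apart on the minus strand. Gpr34 (chrX:13632089-13640858) lay within Cask, and Irf8 (chr8:120736358-120756694) within the gene model Gm20388. Csf1r, with 24 exons after merging its isoforms, shared 873 exonic bases (15.1% of its length) with Hmgxb3 on the other strand. The counting used no strand and left out reads assigned to more than 1 gene, so reads from those bases were not counted for either gene. Cx3cr1 shared 78 exonic bases, P2ry12 shared 9, and the other members shared 0.

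Windows from 250 bases before to 50 bases after the annotated start were found in RefSeq (GRCm38.p6) for 6 of the 10 members: Cx3cr1, P2ry12, P2ry13, Siglech, Olfml3 and Irf8, which had a pair of them. The others are Tmem119, Gpr34, Csf1r and Selplg. Both strands were searched for the core letters bound by PU.1, GAGGAA. They stood in 2 of the 7 windows, and in 28.3% of all 32817 RefSeq windows. The windows of P2ry13 (chr3:59210833-59211132, minus strand) and Siglech (chr7:55767934-55768233, plus strand) are shown because they hold this match, with its letters in capitals. In P2ry13 it starts 48 bases before the start, and in Siglech, where it reads TTCCTC on the gene's strand, 4 bases before.
P2ry13: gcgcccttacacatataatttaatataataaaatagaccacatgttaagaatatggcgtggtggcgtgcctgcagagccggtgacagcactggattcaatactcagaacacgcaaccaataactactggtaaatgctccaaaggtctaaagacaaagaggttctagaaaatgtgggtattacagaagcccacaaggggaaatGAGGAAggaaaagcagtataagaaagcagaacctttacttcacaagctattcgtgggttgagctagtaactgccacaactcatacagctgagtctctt
Siglech: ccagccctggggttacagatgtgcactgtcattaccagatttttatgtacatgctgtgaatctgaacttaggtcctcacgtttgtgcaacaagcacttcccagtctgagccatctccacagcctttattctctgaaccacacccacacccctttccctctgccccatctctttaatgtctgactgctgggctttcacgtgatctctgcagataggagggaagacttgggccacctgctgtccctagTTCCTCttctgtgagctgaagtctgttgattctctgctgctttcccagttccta
The longer form GAGGAAGT (3.2% of all windows), the IRF letters GAAANNGAA (8.55%) and the MEF2 letters CTAAAAATA (0.518%) were in none of the 7 windows. The RUNX letters TGTGGTT (5.27% of all windows) were in 1 of them, that of Siglech. These are letter matches in short windows and not measured binding sites.

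Total counts ranged from 17372864 to 46596489 per mouse (median 25645977), and each member was counted between 52 and 4920 times in a mouse. App, the gene of the transgene's product, separated the genotypes: it lay between 1572 and 1787 CPM in the 8 WT mice and between 2076 and 2787 CPM in the 7 Tg2576 mice. All libraries carried the same flow cell and lane in the file headers. One library stood apart. Tg2576 vehicle replicate 1, which had the lowest total count, held the lowest level of all 15 mice for 7 of the 10 members, whereas its App level was 2615 CPM. The members summed to 238 CPM in that mouse and to between 340 and 396 CPM in the other 3 Tg2576 vehicle mice. Of the other microglial genes, Trem2 was 8.86 CPM there against 33.3 to 41.6 CPM in its group, and Aif1 was 3.24 against 7.01 to 11 CPM. Spi1, however, was 7.15 CPM against 6.14 to 8.34 CPM. Trem2 and Aif1 do not stand for all microglial genes. That mouse was the lowest of the 15 for 4 of 20 further homeostatic genes and the highest for 2 of them. Their sum there was 650 CPM, against 526 to 717 CPM in its group. It was the lowest for 4 of 22 pan-myeloid and 1 of 19 plaque-associated genes. The same held for 4 of 8 oligodendrocyte markers, 3 of 8 endothelial markers, 2 of 7 astrocyte markers and 1 of 8 neuronal markers. In some of these lists another mouse was the lowest more often. WT DHA replicate 1 was the lowest for 8 of 22 pan-myeloid and 10 of 19 plaque-associated genes. Tg2576 vehicle replicate 4 was the lowest for 6 of the 20 further homeostatic genes. The comparisons of the members between groups are given with and without Tg2576 vehicle replicate 1. Other results include that mouse unless stated.

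Compared per kilobase of exonic length, so that genes can be set against each other, the levels in WT vehicle mice ran from 18.8 ± 0.438 CPM per kb (mean ± SD, n = 4) for Csf1r down to 1.17 ± 0.22 for Irf8, the transcription factor. Below Csf1r came Tmem119, a membrane protein used as a microglial marker, at 12.9 ± 1.85, Cx3cr1 at 12.2 ± 0.92, Selplg at 9.06 ± 0.585 and P2ry12 at 7.86 ± 0.471 CPM per kb. P2ry13, Siglech, Olfml3 and Gpr34 followed at 3.51 ± 0.219, 3.36 ± 0.305, 3.19 ± 0.185 and 2.15 ± 0.5 CPM per kb. The ranges of Tmem119 and Cx3cr1 overlapped, as did those of P2ry13 and Siglech and of Siglech and Olfml3, so those neighbours were not separated by the spread between mice. Csf1r was first and Irf8 last in all 4 groups. P2ry12 and P2ry13, neighbouring genes that both encode receptors for ADP, had ranges that did not overlap in WT vehicle mice.

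**Figure D1:**
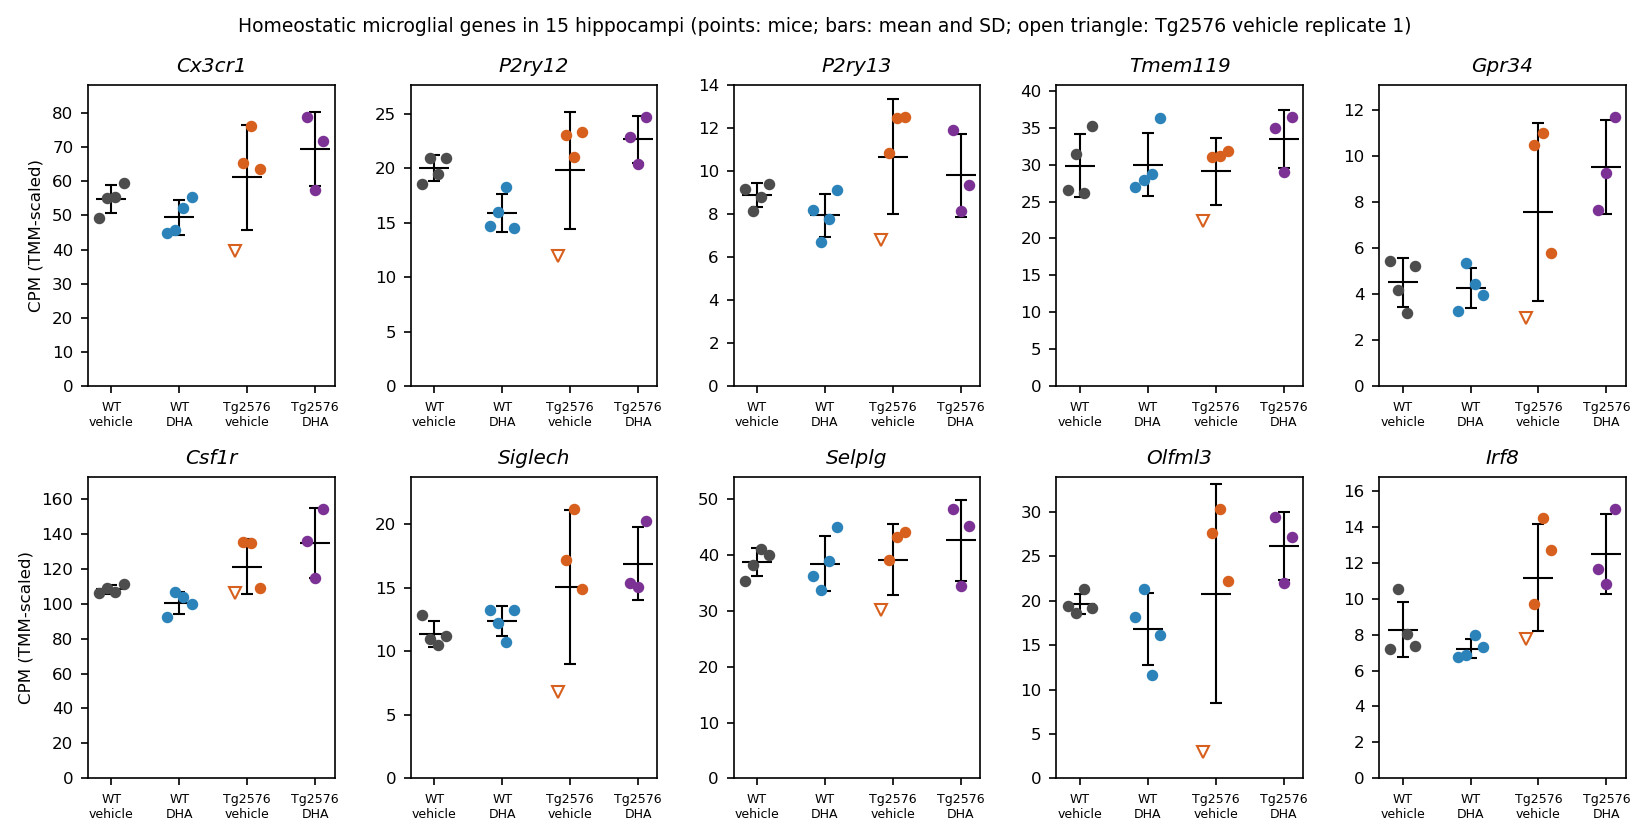
Level of each homeostatic microglial gene (CPM, TMM-scaled, vertical axes from 0) in the 15 mice by group, with the mean and SD as bars. The open triangle is Tg2576 vehicle replicate 1, the lowest of all mice for 7 of the 10 genes.

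The first question was whether these genes differed between Tg2576 and WT mice under vehicle. No member was called, against 3.09% of all genes tested. At a p under 0.05 there were 2 (Gpr34 and Irf8), where 10.7% of all genes passed. DESeq2 and limma-voom also called 0 at p under 0.01, beside 4.23% and 3.13% of all genes. The members' median log2 fold change was 0.16, with 8 of 10 above 0, beside a median of 0.00030 over all genes. For no member were the groups of mice separate, whereas 5.16% of all genes had groups that did not overlap. No member passed an adjusted p (Benjamini-Hochberg) of 0.05 in edgeR, which 0.0154% of genes did.

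Irf8 lay at 7.19, 10.5, 8.01 and 7.37 CPM in WT vehicle mice and at 7.78, 9.73, 14.5 and 12.7 CPM in Tg2576 vehicle mice. Its log2 fold change was 0.44 (SE 0.18, adjusted p = 0.397 in edgeR, exact permutation p = 0.2). Gpr34, a receptor for lysophosphatidylserine, was at 5.43, 4.16, 3.18 and 5.24 CPM in WT and at 2.95, 10.5, 11 and 5.77 CPM in Tg2576 vehicle mice. Its difference was 0.75 on the log2 scale (SE 0.31, adjusted p = 0.398 in edgeR, exact permutation p = 0.257). For Gpr34 the other 3 Tg2576 mice lay above all WT mice and replicate 1 below them, whereas for Irf8 replicates 1 and 2 lay within the WT range.

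Without Tg2576 vehicle replicate 1 the comparison of genotypes under vehicle called 3 members, all higher in Tg2576, beside 4.95% of all genes. They were Siglech (log2 fold change 0.64, SE 0.14, adjusted p = 0.097), Gpr34 (1.01, SE 0.25, adjusted p = 0.123) and Irf8 (0.57, SE 0.17, adjusted p = 0.162, all by edgeR). Siglech, a sialic acid-binding lectin, was at 12.8, 10.9, 10.5 and 11.2 CPM in WT vehicle mice, at 6.81 CPM in that mouse and at 17.2, 21.2 and 14.9 CPM in the other Tg2576 vehicle mice. The median of the members was 0.37 without the mouse. P2ry12 and Tmem119, at -0.0074 and -0.036 with all mice, stood at 0.17 and 0.069 without it and were not called. Leaving out WT vehicle replicate 2, which had the highest Irf8 level of its group, called Irf8 alone, beside 1.6% of all genes.

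The same question was then asked of the mice given DHA. Irf8, Csf1r, Gpr34, Cx3cr1 and P2ry12 were higher in Tg2576 DHA than in WT DHA mice, which is 5 of 10 members beside 1.75% of all genes (1.06% higher). All 10 fold changes were above 0, with a median of 0.47 on the log2 scale beside -0.0035 over all genes. DESeq2 called 5 members, beside 2.48% of all genes, and limma-voom 4, beside 1.89%. For 7 members, the 5 called and Siglech and Olfml3, every Tg2576 DHA mouse lay above every WT DHA mouse, and 8.56% of all genes had such separate groups in either direction. None of the 10 passed an adjusted p of 0.05 in edgeR (0.00512% of genes did), their lowest being 0.45 for Irf8.

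Irf8 was at 6.78, 6.85, 7.97 and 7.29 CPM in WT DHA and at 11.6, 10.8 and 15 CPM in Tg2576 DHA mice. The groups did not overlap, and the level was 1.73-fold higher in Tg2576 mice (log2 fold change 0.79, SE 0.20, adjusted p = 0.45 in edgeR). Csf1r, the receptor for the growth factors Csf1 and Il34, was at 92.3, 107, 104 and 99.9 CPM against 136, 114 and 154 CPM. That is a 1.34-fold difference (log2 0.42, SE 0.11, adjusted p = 0.478 in edgeR), again without overlap.

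Gpr34 was at 3.26, 5.33, 4.45 and 3.93 CPM in WT DHA mice and at 7.63, 9.25 and 11.7 CPM in Tg2576 DHA mice. With 2.24-fold (log2 1.16, SE 0.34, adjusted p = 0.536 in edgeR) it had the largest difference of the 10 members. Cx3cr1, the fractalkine receptor, was at 44.7, 45.8, 52.0 and 55.5 CPM against 78.9, 57.5 and 71.9 CPM. Its difference was 1.4-fold (log2 0.49, SE 0.16, adjusted p = 0.56 in edgeR), with the highest WT and the lowest Tg2576 mouse close together.

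P2ry12, the ADP receptor that steers microglial processes, was at 14.7, 16.0, 18.3 and 14.5 CPM in WT DHA mice and at 22.9, 20.4 and 24.7 CPM in Tg2576 DHA mice (1.43-fold, log2 0.51, SE 0.17, adjusted p = 0.56 in edgeR). Olfml3, which encodes a secreted glycoprotein, was at 18.2, 21.4, 11.6 and 16.2 CPM against 29.4, 22 and 27.1 CPM. It was not called (log2 0.63, SE 0.49, adjusted p = 0.844 in edgeR), and its SE was the largest of the 10. Siglech, at 13.2, 12.2, 10.7 and 13.2 CPM against 15.4, 15.1 and 20.2 CPM, was not called either (log2 0.45, SE 0.24, adjusted p = 0.769 in edgeR). All groups share the estimate of the spread, so the low values of Tg2576 vehicle replicate 1 enter these errors. Without that mouse both were called and the count was 7, beside 2.09% of all genes.

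The remaining members were Tmem119, Selplg and P2ry13. Tmem119 ranged from 27.0 to 36.3 CPM in WT DHA and from 29.0 to 36.5 CPM in Tg2576 DHA mice (log2 fold change 0.16, SE 0.14). Selplg, the selectin ligand, ranged from 33.7 to 45.1 and from 34.5 to 48.3 CPM (0.15, SE 0.14), and P2ry13 from 6.69 to 9.12 and from 8.16 to 11.9 CPM (0.31, SE 0.19). Their groups overlapped and none was called. In exact two-sided permutation tests of 4 mice against 3, where the smallest possible p is 0.0286, Irf8, Csf1r, Gpr34, Cx3cr1, P2ry12 and Siglech reached it. Olfml3 gave an exact permutation p of 0.0571.

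The number called under DHA depended on single mice. Irf8 was called in all 15 fits that left out 1 mouse, Csf1r in 14 and Gpr34 in 13, but Cx3cr1 and P2ry12 in 6 each. Omitting replicate 3 of the Tg2576 DHA group left 1 member (Irf8, 1.11% of all genes), and omitting its replicate 1 left 3 (2.3%). Among WT mice, 2 members were called when the DHA-treated replicate 1 was omitted (1.25% of all genes), and 3 when the DHA-treated replicate 2 (1.74%) or the vehicle-treated replicate 3 (1.76%) was. Choroid plexus markers moved with this comparison: their 8 genes summed to between 3127 and 5176 CPM in the 3 Tg2576 DHA mice, but to 63.3, 153, 357 and 5861 CPM in the WT DHA mice. All 8 had a log2 fold change above 0 (median 1.25) and none was called. With their summed level as a covariate, an alternative added after the data were seen, 2 members (Csf1r and Irf8) were called, beside 0.86% of all genes, and all 10 differences stayed above 0 with a median of 0.51. The part of choroid plexus tissue in the difference was not tested further.

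**Figure D2:**
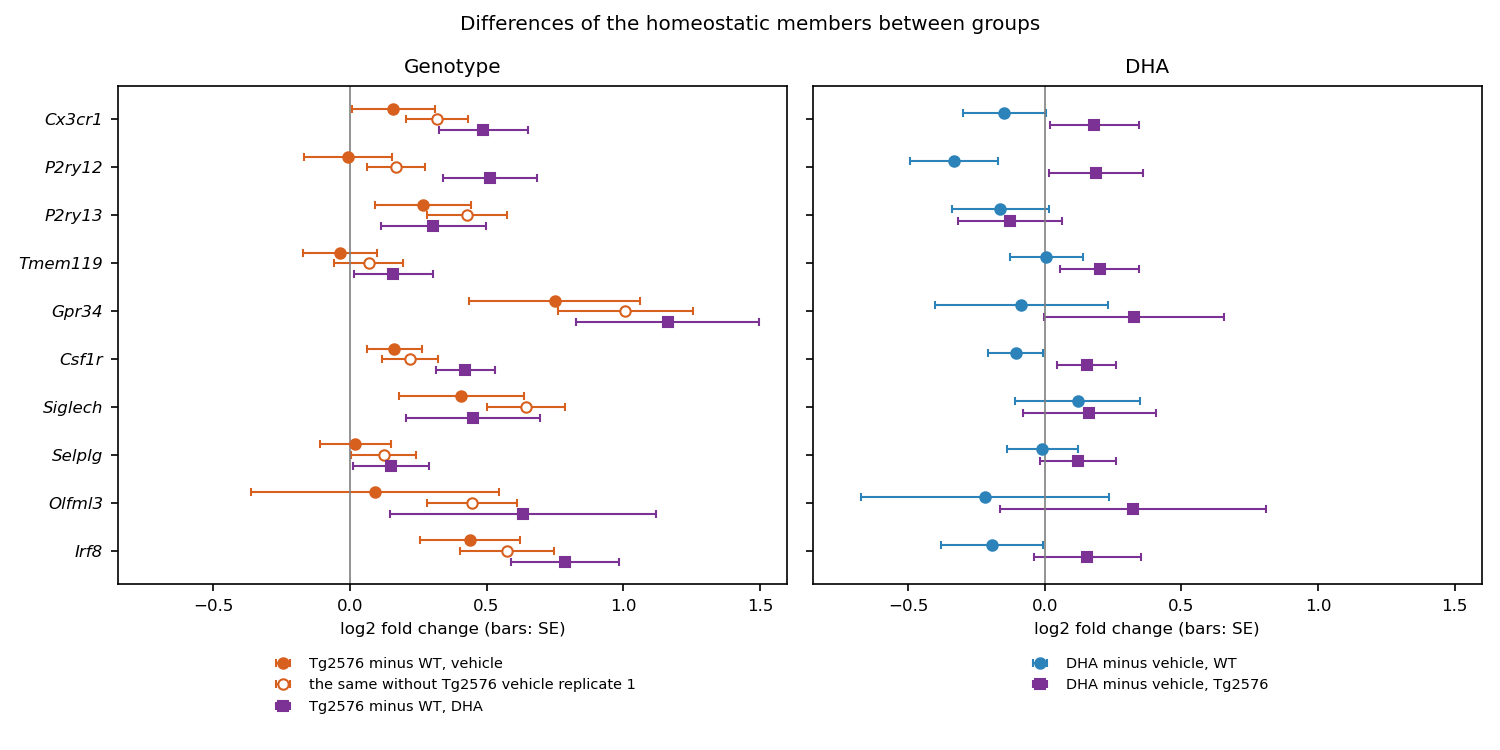
Log2 fold change with its SE of each member, for Tg2576 minus WT under vehicle (filled circles), the same without Tg2576 vehicle replicate 1 (open circles) and under DHA (squares) on the left, and for DHA minus vehicle in WT and Tg2576 mice on the right. All 10 members lie above 0 for genotype under DHA, and no DHA effect was called.

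Averaged over both treatments, 4 members were higher in Tg2576 mice (3.85% of all genes were called, 1.94% as higher and 1.91% as lower). They were Gpr34 (1.94-fold, log2 0.96, SE 0.23, adjusted p = 0.0994), Irf8 (1.53-fold, log2 0.61, SE 0.13, adjusted p = 0.0739), Cx3cr1 (1.25-fold, log2 0.32, SE 0.11, adjusted p = 0.258) and Csf1r (1.22-fold, log2 0.29, SE 0.074, adjusted p = 0.121), all by edgeR. Siglech (0.43), Olfml3 (0.36), P2ry13 (0.29), P2ry12 (0.25), Selplg (0.084) and Tmem119 (0.061) had log2 fold changes above 0 and were not called. The median was 0.31 beside -0.0043 over all genes. No member passed an adjusted p of 0.05 in edgeR, and 0.205% of all genes did. In DESeq2, which called the same 4 members (5.11% of all genes), Gpr34, Csf1r and Irf8 passed it, beside 1.95% of all genes. In limma-voom, which called 3 (4.04% of all genes), none passed it. Irf8 also passed it in edgeR without TMM factors (0.307% of all genes) and without the low-count filter (0.204%).

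Gpr34, Irf8 and Csf1r were called in each of the 15 fits that left out 1 mouse, Cx3cr1 in 3. The exact permutation test with labels exchanged within treatment gave p = 0.00367 for Irf8, 0.00408 for Csf1r, 0.0102 for Gpr34 and 0.0494 for Cx3cr1, where 0.000408 is the smallest p it can give. Without Tg2576 vehicle replicate 1 the count rose to 8 (5.17% of all genes), namely all members but Tmem119 and Selplg. Then 4 passed an adjusted p of 0.05 in edgeR, beside 0.492% of all genes: Gpr34 (adjusted p = 0.0196), Irf8 (0.029), Siglech (0.035) and Cx3cr1 (0.041). No member was called lower in Tg2576 mice in these 3 comparisons of genotypes.

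The proportions of the members among each other were described without a test. The ratio of Tmem119 to Irf8, in CPM, had a median of 3.84 (2.98 to 4.97) in the 8 WT mice and of 2.69 (2.15 to 3.19) in the 7 Tg2576 mice. The ratio of Tmem119 to Gpr34 had medians of 7.14 (4.90 to 9.22) and 3.13 (2.83 to 7.58). These are examples not chosen by a rule, and other ratios differed less. That of Cx3cr1 to Csf1r had medians of 0.503 in WT and 0.502 in Tg2576 mice, and that of Cx3cr1 to P2ry12 of 2.84 and 2.91. None of the 45 ratios between 2 members separated the genotypes without overlap.

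DHA itself was then compared with vehicle within each genotype. In WT mice no member was called (1.38% of all genes were), and none had a p under 0.05 (5.92% of all genes), in edgeR. DESeq2 and limma-voom called 0 as well, beside 2.03% and 1.46% of all genes. The fold changes ran from -0.33 for P2ry12 to 0.12 for Siglech on the log2 scale, 8 of 10 were below 0 and the median was -0.13, beside -0.013 over all genes. P2ry12 was the single member whose groups were separate, as they were for 5.02% of all genes. Its levels were 18.5, 21.0, 19.5 and 21.0 CPM with vehicle and 14.7, 16.0, 18.3 and 14.5 CPM with DHA. The difference of 20.6% had an SE of 0.16 on the log2 scale and an adjusted p of 0.857 in edgeR, with an exact permutation p of 0.0286, the smallest that 4 mice against 4 allow. P2ry12 was called when the WT groups were fitted alone (log2 -0.33, adjusted p = 0.399 in edgeR, 2.39% of all genes called) and when Tg2576 vehicle replicate 1 was left out of the shared fit (log2 -0.33, adjusted p = 0.505, 1.61%).

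In Tg2576 mice DHA was followed by no called member either (0.353% of all genes), by none with a p under 0.05 (3.16%) and by none with separate groups (3.21%). DESeq2 and limma-voom called 0, beside 0.645% and 0.379% of all genes. The log2 fold changes ran from -0.13 for P2ry13 to 0.33 for Gpr34, with a median of 0.17 and 9 of 10 above 0. Without Tg2576 vehicle replicate 1 the median was 0.019 and 7 of 10 were above 0. The interaction of genotype and DHA, which tests whether these effects differ, called 0 members in edgeR, DESeq2 and limma-voom (0.829%, 1.26% and 0.793% of all genes). It was above 0 for all 10, from 0.037 for P2ry13 to 0.54 for Olfml3, with a median of 0.29. Without that mouse the median was 0.16, and 8 of 10 were above 0. The 8 choroid plexus markers were also all above 0 for the interaction (median 1.36) and for DHA in Tg2576 mice (median 1.05), and their part in these values was not tested. P2ry12 was the 1 member with a p under 0.05 (0.52, SE 0.24, adjusted p = 0.845 in edgeR), a level that 5.12% of all genes reached. Averaged over both genotypes, DHA called 0 members in the 3 tools (0.87% of all genes in edgeR, 1.25% in DESeq2 and 0.942% in limma-voom). No member had a p under 0.05 in edgeR (3.78% of all genes). Those fold changes lay between -0.14 for P2ry13 and 0.14 for Siglech, with a median of 0.038 and 3 of 10 below 0. Without Tg2576 vehicle replicate 1 the median was -0.036 and 7 of 10 were below 0. These comparisons share groups of mice, so their values are not independent of each other.

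The spread between mice differed by group. The median SD of the members' log2 levels was 0.10 in WT mice given vehicle and 0.17 in those given DHA, and 0.41 and 0.23 in the respective Tg2576 groups. The Tg2576 vehicle group had the widest spread for 8 of the 10 members, and for 3 once replicate 1 was left out, when its median SD was 0.16. Olfml3 was the extreme case. It was at 2.95 CPM (52 reads) in that mouse and at 27.7, 30.3 and 22.2 CPM in the others, a 9.06-fold gap, whereas the corresponding gap was 1.19-fold for Csf1r and 1.58-fold for Irf8. For Csf1r, Irf8 and P2ry13 that mouse lay within the range of the WT mice.

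**Figure D3:**
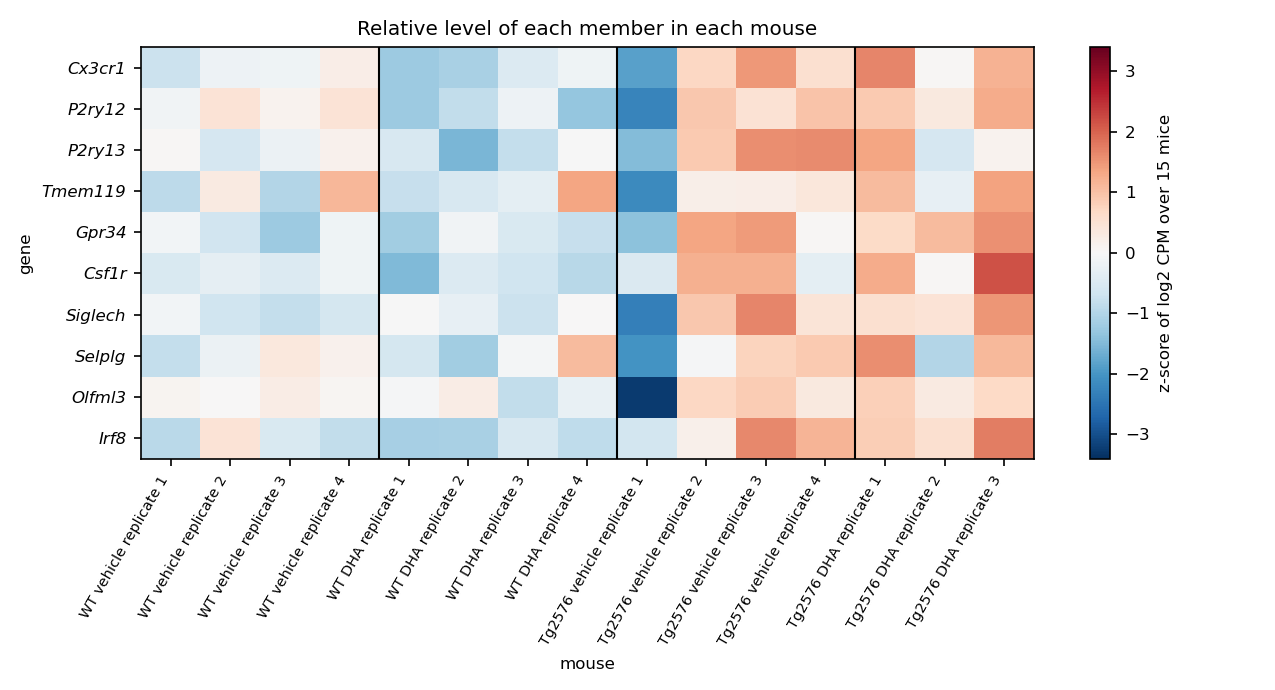
Level of each member (rows) in each mouse (columns) as a z-score of log2 CPM over the 15 mice, red above and blue below the gene's mean. Tg2576 vehicle replicate 1 is blue in all 10 rows, darkest for Olfml3, and the other Tg2576 mice are mostly red.

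Between all 45 pairs the Pearson correlation of log2 CPM over 15 mice was above 0, with a median of 0.68 (0.38 to 0.86). After subtraction of group means the median was 0.65. Without Tg2576 vehicle replicate 1 these medians were 0.65 over 14 mice and 0.24 within groups, where 36 of 45 pairs were above 0. The within-group median thus depended on that mouse. The values share library, depth and scaling, and they are descriptions. Cx3cr1 followed the mean of the other members most closely (r = 0.97 over 15 mice), and Tmem119 least (r = 0.71). After subtraction of group means, with all 15 mice, Cx3cr1 was again the closest (0.95). Csf1r was then the least close (0.64), and Tmem119 stood at 0.78.

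Outside the list, the genes most like the members' mean z-score over the 15 mice were Trem2 (r = 0.92), a receptor on microglia that binds lipids, Lag3 (0.92), Hexa (0.92), a lysosomal enzyme, Unc93b1 (0.90), which escorts endosomal Toll-like receptors, and Cd9 (0.90). Without Tg2576 vehicle replicate 1 they ranged from 0.86 for Cd9 to 0.93 for Trem2. After subtraction of group means the leading genes were Zfp133-ps (0.96), Ephx2 (0.96), Tmeff2 (0.95), Itgam (0.95) and Qdpr (0.94), of which Itgam, an integrin subunit, is a myeloid gene. Over the 14 other mice the r after that subtraction was 0.86 for Zfp133-ps, 0.77 for Ephx2 and 0.83 for Tmeff2. It was 0.81 for Itgam and 0.72 for Qdpr. Before the subtraction the r over these mice was 0.17 for Zfp133-ps, 0.32 for Ephx2 and 0.33 for Tmeff2. It was 0.85 for Itgam and 0.43 for Qdpr.

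Other lists chosen for the same cells give the setting, beside 1.94% of all genes called higher and 1.91% called lower over both treatments. Of 20 further homeostatic genes, 5 were higher in Tg2576 mice over both treatments and 0 lower (median log2 fold change 0.21). Cd33, a sialic acid-binding receptor, was higher by 0.62 on the log2 scale (SE 0.13) and Vsir, an immune checkpoint protein, by 0.30 (SE 0.080). Of 22 pan-myeloid genes 13 were higher and 0 lower (median 0.47), among them Ptprc, the leukocyte phosphatase CD45, at 0.87 (SE 0.17), Ctss, a lysosomal protease, at 0.66 (SE 0.13) and Laptm5 at 0.59 (SE 0.13). Of 19 plaque-associated genes 10 were higher and 0 lower (median 0.53), led by Cst7, a protease inhibitor, at 3.21 (SE 0.39), Cd68, a lysosomal membrane protein, at 0.99 (SE 0.14) and Cd52 at 1.15 (SE 0.24). These 3 lists stand beside 4 of 10 members with a median of 0.31, and the differences between lists were not tested. At an adjusted p of 0.05 in edgeR, 1 further homeostatic, 2 pan-myeloid and 2 plaque-associated genes passed, beside 0.205% of all genes. All these values include Tg2576 vehicle replicate 1. Without it 8 of 10 members were called (5.17% of all genes) and their median was 0.38. The other lists are given only with it.

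Of 17 ligands, receptors and transcription factors that sustain microglia, 2 were higher and 2 lower over both treatments (median 0.10). The shares of all genes were 1.94% and 1.91%. Spi1, which encodes PU.1, was higher by 0.70 on the log2 scale (SE 0.15, adjusted p = 0.0739 in edgeR). Cx3cl1, the neuronal ligand of Cx3cr1, was lower than in WT by 0.23 on the log2 scale (SE 0.066, adjusted p = 0.172 in edgeR). Cx3cr1 was higher by 0.32 (adjusted p = 0.258 in edgeR). Of 8 neuronal markers 7 were also below 0 (median -0.16), and a relation between ligand and receptor was not tested. Csf1 (0.10, SE 0.082) and Il34 (-0.052, SE 0.090), the ligands of Csf1r, were not called. Tgfbr1, a receptor of the TGF-beta pathway, was called in the comparison under DHA (0.48, SE 0.14, adjusted p = 0.536 in edgeR).

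The members were also set against the 22 pan-myeloid genes. Their summed CPM was 54.9 ± 4.58% of the summed pan-myeloid CPM in WT vehicle mice (mean ± SD, n = 4), 52.3 ± 4.28% in WT DHA (n = 4), 44.6 ± 5.56% in Tg2576 vehicle (n = 4) and 52.6 ± 4.58% in Tg2576 DHA mice (n = 3). In single Tg2576 vehicle mice this share was 39.4, 52.3, 44.8 and 42.0%, and in WT vehicle mice 60.9, 55.6, 53.1 and 50.1%, so the ranges overlapped through 1 mouse of each group. This share was not tested. Of the 22 pan-myeloid genes 13 were themselves called higher in Tg2576 mice over both treatments, beside 1.94% of all genes. The share is therefore not a level of the members per macrophage.

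**Figure D4:**
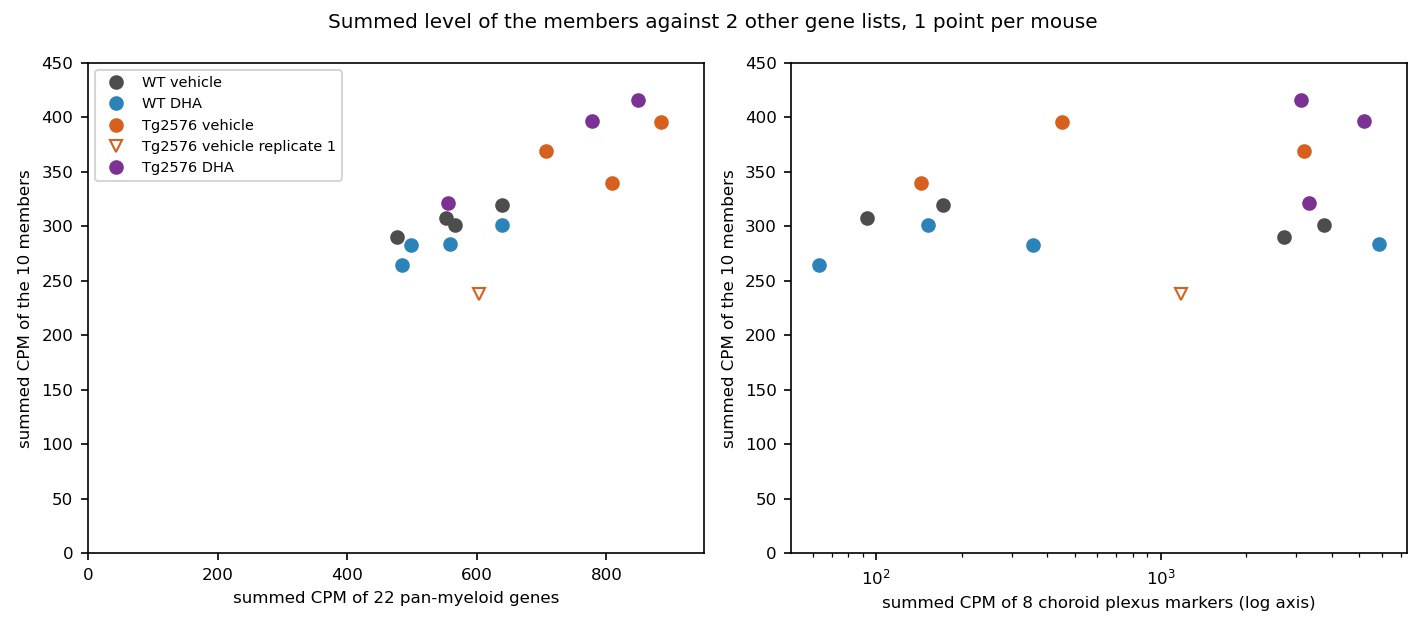
Summed CPM of the 10 members (vertical axes) against the summed CPM of 22 pan-myeloid genes (left) and of 8 choroid plexus markers (right, log axis), 1 point per mouse. Tg2576 vehicle replicate 1 (open triangle) has the lowest sum of the members, 238 CPM. The 3 Tg2576 DHA mice lie toward the upper end of the choroid plexus axis, where mice of each other group also lie, and WT DHA replicate 3 is highest.

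Some members are also made by other macrophages. The 9 border macrophage markers summed to between 18.6 and 35.4 CPM per mouse, with 1 under 1 CPM in all mice, and the members to between 238 and 416 CPM. All 9 had log2 fold changes above 0 over both treatments (median 0.71), and 0 were called by edgeR. At a p under 0.05 there were 3, where 11.6% of all genes passed. Of 15 blood leukocyte markers 12 stayed under 1 CPM in all mice and 5 passed the low-count filter. Of these, Ly6c2 and S100a8 were called higher in Tg2576 mice over both treatments, beside 1.94% of all genes. Ly6c2 differed by 2.67 on the log2 scale under vehicle (SE 0.49) and by -0.38 under DHA (SE 0.47, not called), and its interaction was called (-3.05, SE 0.69, adjusted p = 0.845 in edgeR). The list summed to between 1.52 and 3.82 CPM in WT mice given vehicle and 2.69 and 4.87 CPM in those given DHA. In Tg2576 mice it summed to between 4.23 and 5.68 CPM with vehicle and 4.57 and 9.13 CPM with DHA. Their part in the members' differences was not tested. For genotype over both treatments, 2 of 8 neuronal markers were lower (median -0.16), among them Camk2a (-0.24, SE 0.077), beside 1.91% of all genes. Of the 7 astrocyte and 8 oligodendrocyte markers 0 were called in edgeR. Among 8 endothelial markers Slco1a4 was called higher (0.33, SE 0.11), beside 1.94% of all genes.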

How the data were processed

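RNA of the hippocampus was sequenced from 15 mice. The deposited values are raw read counts per gene. Per the file headers the authors counted exons of GENCODE M25 (GRCm38) with featureCounts 1.6.0 and no strand option, and per the submitters' processing notes they aligned reads with STAR 2.6.1c. The paper gives a TruSeq Stranded mRNA kit for the libraries, the labels a SMARTER mRNA-Seq kit. Each library was 1 mouse.

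Counts were analysed in R 4.3.3 with edgeR 4.0.16 (TMM factors 0.961 to 1.03, filterByExpr with a minimum count of 10, robust quasi-likelihood F tests, 1 coefficient per group, standard errors from the F statistic). Gene symbols were matched by gene ID. The common biological coefficient of variation was 20.1%. Log2 CPM used a prior count of 2. All pairs of replicates differed by more than counting noise (chi-square per degree of freedom 13.3 to 46.5). Correlations of same-numbered mice exceeded 0.1 in 4 of 21 pairs, so replicate numbers were not used to pair mice.

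Named genes of other lists had a p under 0.01 in any comparison, at most 3 per list by lowest p (1 gene that met this is not reported here); Trem2, Aif1, Csf1 and Il34 were added after their values were seen. The members and lists were chosen with earlier results of these data known. The workflow was tested on simulated data. Alternatives were DESeq2 1.42.0, limma-voom (limma 3.58.1), other normalizations and filters, separate groups, non-robust dispersions, a replicate block, 1 surrogate variable (sva 3.50.0) and each mouse left out. Figures were drawn with matplotlib.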

Additional observations from a re-analysis of the deposited data

Results flagged for a closer look

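Of 30 groups of 4 mice examined (10 members in the WT vehicle, WT DHA and Tg2576 vehicle groups), 1 held a mouse set off from the rest by Dixon's criterion. Tmem119 was 22.4 CPM in Tg2576 vehicle replicate 1 and between 31.0 and 31.8 CPM in the other 3 mice, a gap that took up 0.919 of the group's range. Chance flags about 1 in 20 such groups. Other members had a wider gap in fold in the same mouse, but their other 3 mice were more spread out.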

How the results depend on the processing

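The counts of members called kept within 1.5 times in most settings. For genotype under vehicle, 1 surrogate variable called 1 member in place of 0 (2.4% of all genes in place of 3.09%). Leaving out 1 mouse gave 0 to 3 (4.95% for the latter). For genotype under DHA, 1 surrogate variable gave 2 in place of 5, and the choroid plexus covariate also 2. The share of all genes called fell as well, from 1.75% to 0.855% and 0.86%. Leaving out 1 mouse gave 1 (1.11% of all genes) to 7 (2.09%). For DHA in WT mice the fit of only those groups called 1 in place of 0 (2.39% of all genes in place of 1.38%). Leaving out 1 mouse gave 0 to 1 (1.61% for the latter). For genotype over both treatments leaving out 1 mouse gave 3 to 8 in place of 4 (5.17% of all genes for the 8, 3.85% for the 4). The cause of these shifts was not tested. With the replicate number as a block the counts were 0, 5 and 4 for genotype under vehicle, under DHA and over both treatments. They stood beside 3.38%, 1.26% and 3.71% of all genes, and no count of members called changed.

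Over all 10 members and 7 comparisons, 16 of 740 fold changes turned sign under settings other than leaving out a mouse, and 49 of 1050 when 1 mouse was left out, with 0 for genotype under DHA and over both treatments. DHA over both genotypes (15) and genotype under vehicle (14) had the most of the latter. The values named next cover 39 of the 70 fold changes, those of all members for genotype and those the text names for DHA and the interaction. For genotype under vehicle, P2ry12 (-0.0074) turned to 0.0022 with DESeq2, 0.026 without TMM factors, 0.0016 with RLE factors, 0.0087 with only the groups compared and 0.034 with 1 surrogate variable, Selplg to -0.024 with 1 surrogate variable, and Olfml3 to -0.21 with limma-voom. The interaction of P2ry13 turned to -0.027 with 1 surrogate variable. Among these 39, leaving out 1 mouse gave signs on both sides for 5: for genotype under vehicle, P2ry12 (-0.087 to 0.17), Tmem119 (-0.093 to 0.069), Selplg (-0.031 to 0.12) and Olfml3 (-0.14 to 0.44), and for the interaction, P2ry13 (-0.13 to 0.15). A prior count of 0.5 changed no count of exact permutation p values under 0.05. There were 3 or 4 mice per group and 52 to 4920 reads per member, and the parts of depth and of differences between mice in the errors were not tested.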
